A study of Mus musculus with 4 samples.

Results

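Described here are deletions of 21 or more bases, read from RNA, that were listed in only 1 of 2 mouse tumour cell lines and that were annotated as frameshift, splice acceptor, splice donor or in-frame coding changes. A deletion was taken when the reference allele was at least 21 bases longer than the alternative allele, when its chromosome, position and alleles stood in the list of 1 line and not in that of the other, and when its annotated effect was of those classes. This gave 751 deletions in MBT2 and 511 in LM8, so 1262 of the 11806 variants in both lists. The deletions were chosen by length, annotated effect and presence in 1 list, so these are given as descriptions. The deletions lay in 570 genes of MBT2 and 407 genes of LM8.

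MBT2 is a bladder cancer line and LM8 an osteosarcoma line, and both came from C3H/HeN mice. MBT2, labelled as clone 63, grew in RPMI-1640 with 10% serum, and LM8 grew in MEM with 10% serum and 24 mM HEPES. Neither line was treated. Poly(A) RNA of each line was made into 2 directional libraries that were read as pairs of 75 bases, and the variants of each line were called jointly from its 2 libraries without a normal sample. The labels do not say whether the 2 libraries of a line came from separate cultures, so their spread may be technical. The lists hold only expressed and covered sites, so a gene that is silent in a line and a gene without the deletion cannot be told apart. The labelled cell types could not be checked from variant lists: of 18 epithelial and urothelial marker genes, 0 held a listed variant in MBT2 and 0 in LM8, and of 16 osteoblast and mesenchymal marker genes, 1 did in MBT2 and 3 did in LM8 (Col1a1, Col1a2 and Runx2). Markers of other cell types held 0 variants in both lines, of 8 genes.

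Introns are removed from a transcript at a donor site, which almost always begins with GT on the RNA strand, and an acceptor site, which ends with AG. The acceptor is preceded by a stretch rich in C and T, and neighbouring AG pairs can compete as acceptor, which gives transcripts that differ by a few bases. A read of spliced RNA set against the genome lacks the bases of the intron, and a gap of this kind and a deletion in the DNA have the same form in a variant list. Short introns, introns kept in mature RNA and introns inside protein-coding exons are all known from mammalian genes.

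The deleted bases of a few members are printed on the strand of the RNA, from 5′ to 3′, as the reference alleles of the deposited lists give them, with positions on GRCm39. Capitals mark GT at the start and AG at the end of the run. The first set shows deletions that most reads carried, in genes with the most reads or the most members.
Kmt2b in MBT2, chr7:30281171-30281262, minus strand: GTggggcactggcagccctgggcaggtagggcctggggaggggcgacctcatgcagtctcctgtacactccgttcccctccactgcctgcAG
Nbeal2 in MBT2, chr9:110455699-110455800, minus strand: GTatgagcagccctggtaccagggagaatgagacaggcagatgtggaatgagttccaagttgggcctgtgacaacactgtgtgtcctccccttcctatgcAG
Ddx5 in LM8, chr11:106674845-106674926, minus strand: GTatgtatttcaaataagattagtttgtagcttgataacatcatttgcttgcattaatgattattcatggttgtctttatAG
Wdr90 in LM8, chr17:26068388-26068536, minus strand: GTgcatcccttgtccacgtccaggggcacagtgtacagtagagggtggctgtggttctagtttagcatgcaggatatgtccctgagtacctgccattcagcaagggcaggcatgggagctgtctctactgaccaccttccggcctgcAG

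The second set shows deletions with a low share of all reads, at some of the most deeply read sites. By convention a deletion is listed as far to the left as the letters allow, and in some of these runs the G of GT stands at the last place and the T at the first.
Srr in MBT2, chr11:74799670-74799821, minus strand: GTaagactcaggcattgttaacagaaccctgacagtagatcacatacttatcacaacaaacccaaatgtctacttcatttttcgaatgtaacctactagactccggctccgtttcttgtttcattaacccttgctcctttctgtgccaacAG
Prkg2 in MBT2, chr5:99091343-99091421, minus strand: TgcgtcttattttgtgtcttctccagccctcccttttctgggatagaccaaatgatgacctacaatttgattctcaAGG
Panx3 in LM8, chr9:37580289-37580398, minus strand: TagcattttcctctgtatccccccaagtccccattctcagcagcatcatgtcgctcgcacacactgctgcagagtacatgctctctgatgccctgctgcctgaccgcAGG
Elob in LM8, chr17:24047923-24048056, minus strand: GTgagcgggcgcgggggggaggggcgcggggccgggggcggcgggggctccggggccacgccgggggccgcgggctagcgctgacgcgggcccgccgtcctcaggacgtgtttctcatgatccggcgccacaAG

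The third set shows pairs of overlapping deletions in 1 gene that share the GT end and differ at the AG end.
Foxp4 in MBT2, chr17:48189423-48189531, minus strand: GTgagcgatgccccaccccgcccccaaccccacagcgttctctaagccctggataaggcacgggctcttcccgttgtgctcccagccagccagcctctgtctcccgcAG
Foxp4 in MBT2, chr17:48189420-48189531, minus strand: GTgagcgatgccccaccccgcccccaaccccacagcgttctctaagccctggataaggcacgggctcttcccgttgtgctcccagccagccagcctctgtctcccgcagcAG
Fhod1 in MBT2, chr8:106057923-106058001, minus strand: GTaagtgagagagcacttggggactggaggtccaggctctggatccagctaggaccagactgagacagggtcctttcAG
Fhod1 in MBT2, chr8:106057918-106058001, minus strand: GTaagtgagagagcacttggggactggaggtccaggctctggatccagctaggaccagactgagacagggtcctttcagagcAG
Tle6 in LM8, chr10:81431240-81431313, minus strand: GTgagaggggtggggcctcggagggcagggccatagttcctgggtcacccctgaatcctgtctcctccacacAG
Tle6 in LM8, chr10:81431210-81431313, minus strand: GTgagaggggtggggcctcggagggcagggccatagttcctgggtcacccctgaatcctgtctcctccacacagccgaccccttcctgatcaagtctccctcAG

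The fourth set shows deletions without GT and AG ends. In Hmgn5 and Dhx9 the stretch is taken from the annotated transcript and runs from the first to the last base of a direct repeat, with the 2 copies in capitals, of which the deletion removes 1 copy and the bases between. Smc1a is printed with no capitals, since no letters were marked.
Hmgn5 in MBT2, chrX:108048998-108049078, minus strand: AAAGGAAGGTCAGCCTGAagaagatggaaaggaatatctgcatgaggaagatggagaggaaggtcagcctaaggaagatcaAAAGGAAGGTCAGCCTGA
Dhx9 in LM8, chr1:153332287-153332340, minus strand: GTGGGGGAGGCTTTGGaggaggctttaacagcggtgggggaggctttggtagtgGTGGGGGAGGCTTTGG
Smc1a in LM8, chrX:150805931-150806033, plus strand: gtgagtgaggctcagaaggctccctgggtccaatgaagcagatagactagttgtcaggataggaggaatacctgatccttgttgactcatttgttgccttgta

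By annotated effect, 369 of the 751 MBT2 deletions were splice acceptor changes, 343 frameshifts, 31 splice donor changes and 8 in-frame coding changes. In LM8, 245 of 511 were splice acceptor changes, 248 frameshifts, 10 splice donor changes and 8 in-frame coding changes. Acceptor and frameshift labels thus made up almost all of both sets. The shortest deletion was 24 bases in MBT2 and 22 in LM8, the median 95 and 98 bases, and the longest 222 and 233 bases. Most fell in a narrow band, with 616 MBT2 deletions (82.0%) and 381 LM8 deletions (74.6%) between 70 and 120 bases. Among the distinct intron lengths of the annotated genes, 6.29% lay in that band, and the median was 1494 bases. Few members were near the length limit, with 7 in MBT2 and 3 in LM8 shorter than 60 bases. Just inside it were Sugt1 and Zc3h7b in MBT2 at 24 bases, in 88.9% and 91.7% of reads, and Tardbp in LM8 at 22 bases, in 0.624% of reads. Just outside it, with the same effect classes and listed in 1 line, were Nomo1 in MBT2 at 17 bases (91.4% of reads) and Bglap3 in LM8 at 19 bases (96.3% of reads). Others there had low shares: Eif4g1 in MBT2 at 14 bases (0.268%), and Smurf2 at 15 bases (8.82%) and Arhgef10 at 12 bases (15.6%) in LM8.

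**Figure D1:**
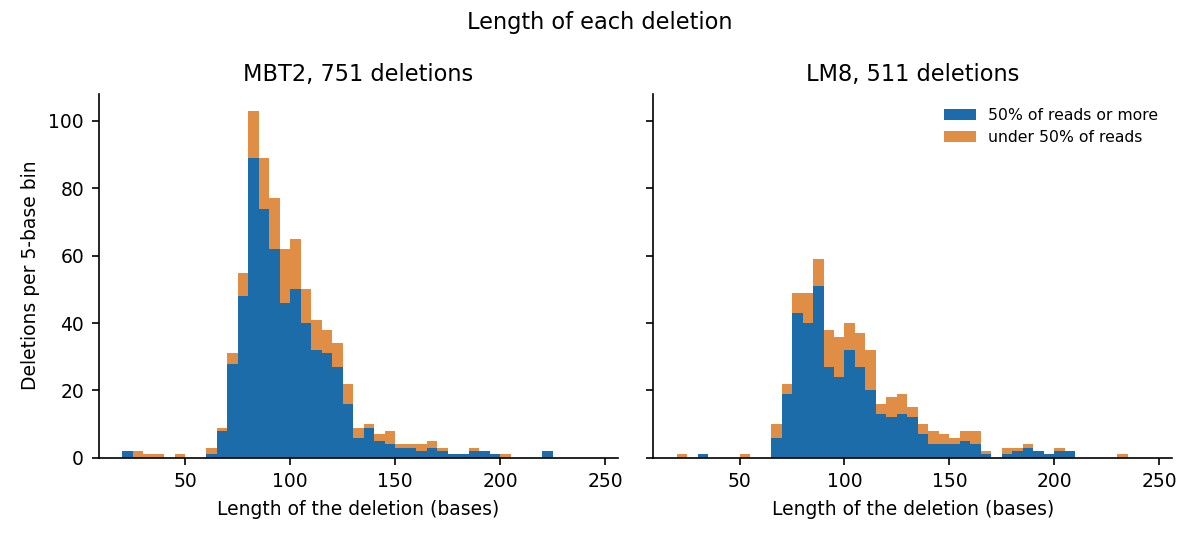
Length of each deletion in bases, in bins of 5, for MBT2 (left) and LM8 (right), with deletions carried by 50% of reads or more in blue and the others in orange. Between 70 and 120 bases lie 616 of 751 MBT2 deletions and 381 of 511 LM8 deletions.

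The share of reads with each deletion, which is the deleted reads out of all reads of either allele in both libraries of a line together, fell into 2 separate ranges. In MBT2 the median was 0.884, with quartiles of 0.778 and 0.920, and in LM8 the median was 0.883, with quartiles of 0.254 and 0.932. No deletion of either line lay between 0.4 and 0.6. The highest share below 0.5 was 0.341 in MBT2 and 0.257 in LM8, and the lowest share above it was 0.602 in MBT2 and 0.668 in LM8. A share of 0.5 or more was found for 600 of 751 MBT2 deletions (79.9%, exact Clopper-Pearson 95% interval 76.9 to 82.7) and for 382 of 511 LM8 deletions (74.8%, 70.8 to 78.5). The odds of a high share were 1.34 times as large in MBT2 as in LM8 (Fisher's exact test, two-sided, adjusted p = 0.0488 by Benjamini-Hochberg over 15 contrasts). This difference is at the edge of the threshold, and the test treats deletions as independent although several can lie in 1 gene. The 15 contrasts include those of intron ends and lengths against deletions with other effects, whose outcome the effect label partly fixes. Their small p-values lower the adjusted p of the others, so no difference between the lines is concluded. At the low end, 100 MBT2 and 97 LM8 deletions were carried by fewer than 10% of reads. At the high end, 17 MBT2 and 25 LM8 deletions were carried by all reads. Depth per deletion was at least 22 reads in both lines, with a median of 125 in MBT2 and 110 in LM8. Intervals cover counting error only, since amplified reads are not separate molecules.

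**Figure D2:**
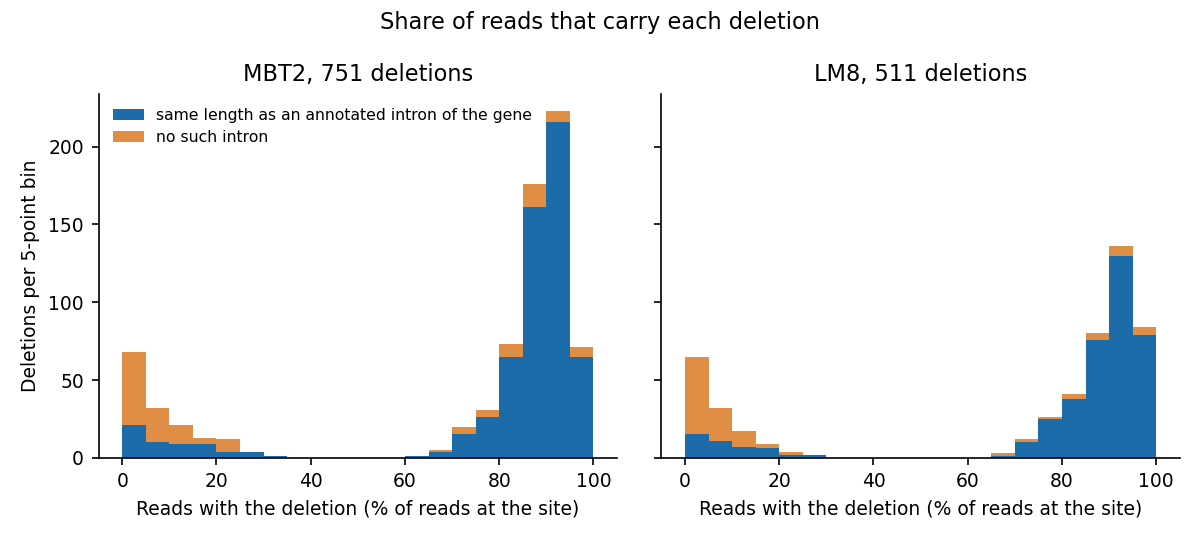
Reads with the deletion in percent of reads at its site, in bins of 5 points, for MBT2 (left) and LM8 (right), with deletions of the same length as an annotated intron of their gene in blue and the others in orange. No deletion lies between 40% and 60%, and 600 of 751 MBT2 and 382 of 511 LM8 deletions lie at 50% or above.

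The deleted bases had the ends of an intron in nearly all cases. GT at the start and AG at the end, on either strand and after a shift of at most 5 bases, were found in 714 of 751 MBT2 deletions (95.1%, interval 93.3 to 96.5) and in 482 of 511 LM8 deletions (94.3%, interval 92.0 to 96.2). A shift was needed for 357 of these 714 MBT2 and 255 of these 482 LM8 deletions. The search did not read the bases beside a deletion, so it was not checked that they allow the shift. When the same letters were sought at the middle of each run, they were found in 5.86% of MBT2 and 6.85% of LM8 deletions. On either strand and after the same shift, another 16 MBT2 and 10 LM8 deletions began with GC and ended with AG. These letters were not limited to the strand of the gene and were not sought at the middle of the runs. They thus need not mark introns. The GT and AG ends lay on the strand of the annotated gene in 706 of 713 MBT2 and 476 of 482 LM8 deletions with such ends and a matched gene. The effect label of a member already places it in a transcript of that gene. For deletions of 1 line with other effects, whose annotated gene can be a neighbour, this held for 315 of 449 in MBT2 (70.2%) and 222 of 319 in LM8 (69.6%). Beyond GT, the fifth base of the run was G in 81.4% of MBT2 and 79.7% of LM8 deletions with intron ends. Before the final AG stood C in 75.1% of MBT2 and 77.0% of LM8 deletions, and G in 1 MBT2 and 2 LM8 deletions. In the 15 bases before that letter, C and T made up 76.0% on average in deletions carried by most reads and 70.8% in the others in MBT2, and 75.6% and 68.7% in LM8.

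The length of the deletion equalled the length of an annotated intron of the same gene for 611 of 751 MBT2 deletions (81.4%, interval 78.4 to 84.1) and for 402 of 511 LM8 deletions (78.7%, interval 74.9 to 82.1). Only lengths were compared, since the annotation at hand is for an earlier build. The rate of such matches by chance was not computed, and it can be higher in a gene with many introns. The 99-base Acadvl deletion of MBT2 is counted as a match although its ends lie on the strand opposite to the gene. Intron ends, GC and AG ends or an intron length were found in 735 MBT2 and 494 LM8 deletions, which leaves 16 in MBT2 and 17 in LM8 with none of these. The lines did not differ beyond counting error in intron ends (odds ratio MBT2 over LM8 1.16, adjusted p = 0.607) or in intron length (1.18, adjusted p = 0.288, Fisher's exact test). Against the 442 long deletions of the same effect classes that both lists held, intron lengths were less frequent among the members, at 81.4% against 90.3% in MBT2 (odds ratio 0.470, Fisher's exact test, adjusted p = 8.72e-05) and at 78.7% against 90.3% in LM8 (odds ratio 0.398, adjusted p = 4.41e-06). By the same exact test, intron ends were at 95.1% in MBT2 members and 97.5% in the deletions of both lists (odds ratio 0.493, adjusted p = 0.0634), and at 94.3% in LM8 members and 97.5% in those of both lists (odds ratio 0.424, adjusted p = 0.0251). A high share of reads was found in 79.9% of MBT2 members and 81.4% of the deletions of both lists, which did not pass the threshold (odds ratio 0.905, exact test, adjusted p = 0.585). In LM8 it was less frequent in members, with 74.8% set against 81.7% in those of both lists (odds ratio 0.664, exact test, adjusted p = 0.0226). Long deletions of 1 line that had other effects are set beside the members as a description only for intron ends and lengths, since a splice acceptor or donor label already places a deletion at an annotated intron. Intron ends were found in 95.1% of members and 88.6% of these deletions in MBT2, and in 94.3% and 86.5% in LM8. Intron lengths matched for 81.4% of members and 33.8% of these deletions in MBT2, and for 78.7% and 37.4% in LM8, where the lookup uses the annotated gene, which for an upstream or downstream effect is a neighbour of the deletion. A high share of reads was more frequent in members in MBT2, at 79.9% against 72.9% (odds ratio 1.48, Fisher's exact test, adjusted p = 0.00789). In LM8 it was found in 74.8% of members and 69.2% of the deletions with other effects, which did not pass the threshold (odds ratio 1.32, exact test, adjusted p = 0.101).

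Strand differed between the effect classes in the same way in both lines. Intron ends lay on the minus strand for 595 of 714 MBT2 members (83.3%) and 409 of 482 LM8 members (84.9%). Among the deletions of 1 line with other effects, they did so for 24 of 467 in MBT2 (5.14%) and 23 of 326 in LM8 (7.06%). Among deletions of the same effects in both lists, 373 of 431 (86.5%) had them on the minus strand. The effect class is part of how the members were chosen, and these strand shares were looked at after the lists had been seen and were not tested.

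The deletions with a high share and those with a low share differed in what the deleted bases were. Among MBT2 deletions carried by 50% of reads or more, 553 of 600 (92.2%, interval 89.7 to 94.2) had an intron length of their gene, against 58 of 151 (38.4%, interval 30.6 to 46.7) of those carried by fewer. In LM8 these were 359 of 382 (94.0%, interval 91.1 to 96.2) and 43 of 129 (33.3%, interval 25.3 to 42.2). Intron ends were frequent in both classes, at 96.0% and 91.4% in MBT2 and at 95.6% and 90.7% in LM8. The deleted bases were found whole inside an annotated protein-coding transcript of the gene for 22 of 600 high and 49 of 151 low deletions of MBT2 (3.67% and 32.5%), and for 13 of 382 high and 47 of 129 low deletions of LM8 (3.40% and 36.4%). Low deletions thus lay within the sequence of a coding transcript more often than high ones. Of the low deletions with intron ends and no matching intron length, 81 in MBT2 and 76 in LM8, the nearest intron length of the gene was within 10 bases for 38 in MBT2 and 43 in LM8. A start of GTAAG or GTGAG was found in 58.9% of high and 44.9% of low deletions with intron ends in MBT2, and in 54.8% of high and 42.7% of low ones in LM8.

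**Figure D3:**
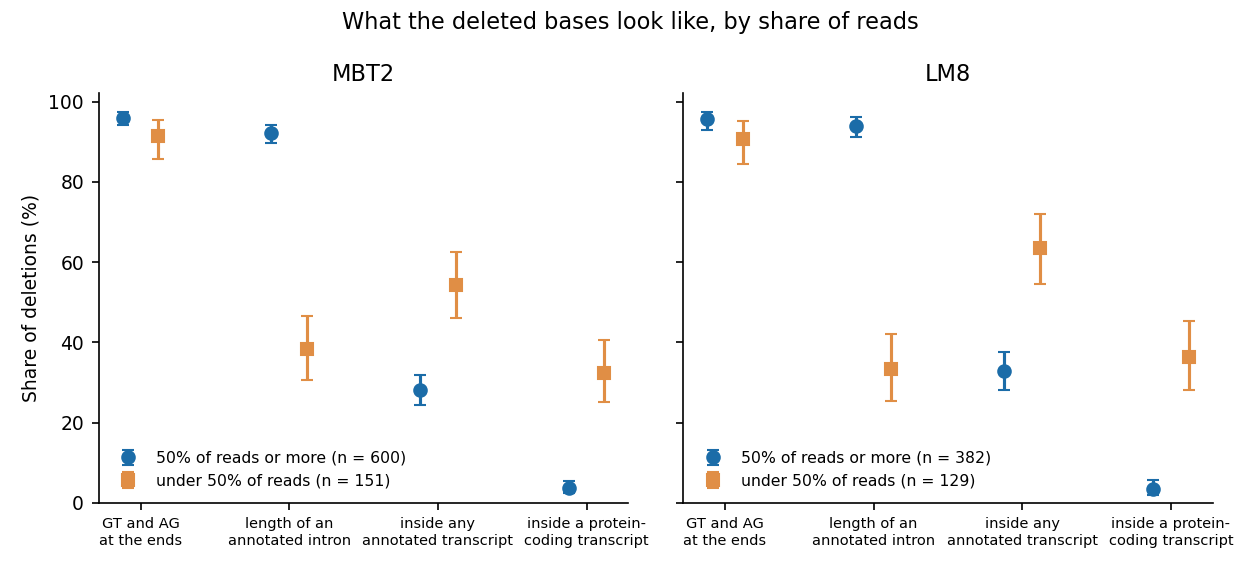
Share of deletions in percent with each of 4 features, with exact 95% intervals, for MBT2 (left) and LM8 (right), split by whether 50% of reads or more carry the deletion. Intron ends are above 90% in both classes, while an intron length of the gene is found for 92.2% of high and 38.4% of low deletions in MBT2 and for 94.0% and 33.3% in LM8.

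By their share of all reads, the most deeply read members were mostly of the low kind. In MBT2, the 8 members with the most reads were carried by 0.282% to 14.7% of reads. Prkg2, a cGMP-dependent protein kinase, had 12 of 1361 reads with a 79-base deletion in library 1 and 12 of 1443 in library 2 (0.856%, interval 0.549 to 1.27). Srr, serine racemase, had 70 of 978 and 75 of 1067 reads with a 152-base deletion (7.09%, interval 6.02 to 8.29). Psd, an exchange factor of Arf GTPases, had 110 of 724 and 116 of 812 reads with a 129-base deletion (14.7%, interval 13.0 to 16.6). The duplicate libraries stood close together for all of these. In Srr and Psd most undeleted reads had the other orientation, and among reads in the orientation of most deleted reads the shares were 100% and 89.6%. Caprin1, an RNA-binding protein of stress granules, was at 1.71%, and the signal peptidase subunit Spcs1 at 1.26%. Gnl3 (nucleostemin), the mitochondrial phosphate carrier Slc25a3 and the ribosome biogenesis factor Bop1 were each under 0.5%, and Bop1 had 0 deleted reads of 714 in library 1 and 4 of 707 in library 2.

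In LM8, the member with the most reads was a 110-base deletion in the first exon of Panx3, a pannexin channel of bone and cartilage cells, with 123 of 2880 reads in library 1 and 122 of 2884 in library 2 (4.25%, interval 3.74 to 4.80). Its run has intron ends, differs from the nearest intron length of the gene by 498 bases and lies within a protein-coding transcript. Elob, a subunit of elongin, had 25 of 1052 and 47 of 1005 reads with a 134-base deletion (3.50%, interval 2.75 to 4.39). Ddx5, a DEAD-box RNA helicase, was the exception among the 8, with 789 of 873 and 752 of 853 reads carrying an 82-base deletion (89.3%, interval 87.7 to 90.7). The 82 bases have the length of an annotated Ddx5 intron and are present in a transcript annotated as having a retained intron. Anapc5, a subunit of the anaphase-promoting complex, was at 2.73% for a run that is also present in an annotated transcript, one subject to nonsense-mediated decay. The GTPase regulator Arhgdia, the mitochondrial channel Vdac3, Tardbp (the RNA-binding protein TDP-43) and Fam120a were at 0.200% to 0.757%.

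Most genes held 1 member, 461 of 570 in MBT2 and 328 of 407 in LM8, and 32 MBT2 and 17 LM8 genes held 3 or more. Nbeal2, a BEACH domain protein needed for platelet granules, held the most, with 14 deletions in 14 exons of MBT2. They were 68 to 102 bases long, all 14 had an intron length of the gene and 13 had intron ends, and 86.8% to 97.9% of reads carried them (median 93.1%). The LM8 list held 0 variants in Nbeal2. Acadvl, the very long-chain acyl-CoA dehydrogenase of mitochondrial fat oxidation, held 9 MBT2 deletions, of which 7 were carried by most reads. Mib2, a ubiquitin ligase of Notch ligands, held 8, at 78.9% to 91.4% of reads, and Kmt2b, a histone H3 lysine methyltransferase, held 7, at 83.9% to 95.4%. For Mib2 and Kmt2b, 4 further deletions of the same kinds stood in both lists. In LM8, Wdr90, a WD-repeat protein of centrioles, held 6 deletions at 80.2% to 92.9% of reads, all with intron ends and an intron length. In MBT2, Wdr90 held 5 other members, so each line listed deletions in the same gene that the other did not. A further 4 deletions of Wdr90 stood in both lists. Cul9, a cullin, held 5 LM8 members, Capn15, a calpain, held 4, and Dgat1, which makes the last step of triglyceride synthesis, held 4. In each of these 3 genes all but 1 member were carried by most reads, and the exception was at 9.30% in Cul9, 6.74% in Capn15 and 6.20% in Dgat1. Dgat1 also held 4 other members in MBT2, and 4 further deletions of Capn15 stood in both lists.

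Overlapping deletions within a line were compared in pairs, ordered by their share of reads. There were 12 such pairs in 11 genes of MBT2 and 11 pairs in 11 genes of LM8, and in 9 MBT2 and 10 LM8 pairs the larger share was above 0.5 and the smaller below it. Both shares were above 0.5 in 1 MBT2 pair, and both were below it in 2 MBT2 pairs and 1 LM8 pair. Both deletions of a pair had intron ends in 11 MBT2 and 10 LM8 pairs. In the Acadvl pairs of MBT2, the ends lay on the minus strand for the larger share and on the plus strand for the smaller. Those pairs thus could not share a GT or AG end on 1 RNA strand. On the RNA strand, 8 of these 11 MBT2 pairs and 8 of these 10 LM8 pairs had the same GT end and different AG ends, while the same AG end with different GT ends was found in 0 MBT2 pairs and 1 LM8 pair, in Abca7. The deletion with the larger share had an intron length of the gene in 11 of 12 MBT2 and 10 of 11 LM8 pairs, and the one with the smaller share in 5 and 5. The 5 in MBT2 include the 99-base Acadvl deletion, whose ends lie on the other strand. In the forkhead factor Foxp4, MBT2 reads lacked 109 bases in 36 of 37 and 49 of 56 cases at the first site and 112 bases in 19 of 55 and 12 of 70 cases at the second (91.4% and 24.8%), and both runs, printed above, end in AG with 3 bases between the ends. In the formin Fhod1, the 79-base form was carried by 93.0% of MBT2 reads and the 84-base form by 3.36%. In Tle6, a member of the Groucho family, the 74-base form was carried by 52 of 58 and 44 of 48 LM8 reads and the 104-base form by 10 of 85 and 13 of 76. The 2 shares of a pair are each taken over the reads at its own record and so need not sum to 100%. In Cul9, forms of 80 and 84 bases were at 97.4% and 9.30% of LM8 reads, and the longer form had 0 deleted reads of 18 in library 2.

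**Figure D4:**
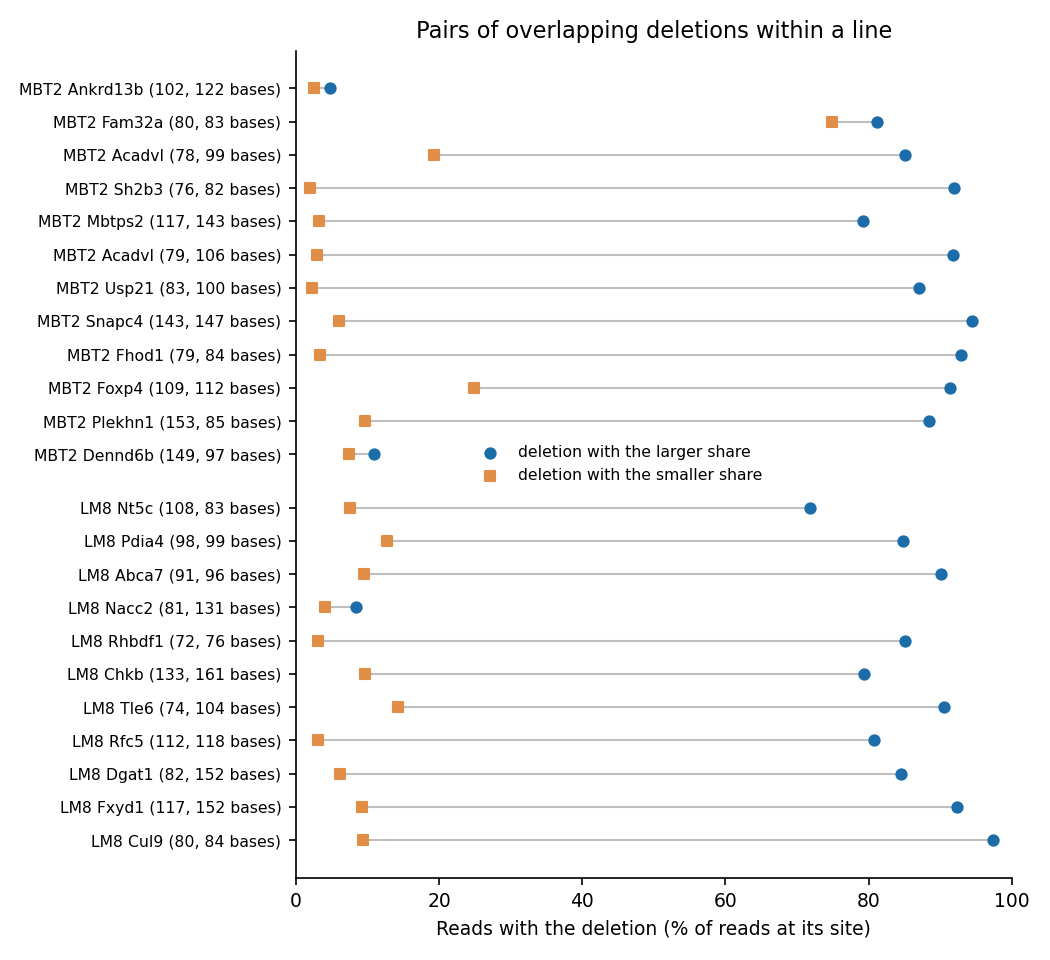
Reads with the deletion, in percent of reads at its own site, for the 12 MBT2 pairs (upper rows) and 11 LM8 pairs (lower rows) of overlapping deletions, with the larger share as a blue circle and the smaller as an orange square, and the 2 lengths beside the gene. In 9 MBT2 and 10 LM8 pairs the larger share is above 50% and the smaller below it.

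The 8 members of each line that were annotated as in-frame were all carried by a minority of reads. The class is the annotation's own, and 2 of these deletions, of 106 bases in Acadvl in MBT2 and of 97 bases in Lonp1 in LM8, have lengths that are not multiples of 3. These were chosen for naming after their values were seen. In MBT2 they were at 1.22% to 34.1% of reads, and the deleted bases of 7 of 8 lay inside a protein-coding transcript. Trip12 and Fbxl5, both parts of ubiquitin ligases, were at 13.2% and 14.2%, and Tmed8 at 18.1%. In LM8 the 8 members of this class were at 0.744% to 7.09% of reads, with Herc2, another ubiquitin ligase, the highest at 7 of 79 and 3 of 62 reads. Srrm1, a splicing co-activator, had 16 of 622 and 12 of 614 reads with a 141-base deletion (2.27%).

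Without GT and AG ends stood 37 MBT2 and 29 LM8 deletions. A direct repeat of 8 or more bases, of which the deletion removes 1 copy, was sought for runs inside a protein-coding transcript. It flanked 2 of the 5 MBT2 and 2 of the 6 LM8 runs without GT and AG ends. Among runs with intron ends it flanked 0 of 66 in MBT2 and 0 of 54 in LM8. Intron ends were sought only within a shift of 5 bases, so a deletion flanked by a longer repeat could miss them. The counts of 0 are thus partly fixed by that limit. In Hmgn5, a nucleosome-binding protein with a repetitive tail, 62 of 302 and 73 of 346 MBT2 reads lacked 81 bases, made up of 1 copy of an 18-base repeat and the bases up to the next copy (20.8%, interval 17.8 to 24.2). In Dhx9, an RNA helicase with a glycine-rich tail, 3 of 48 and 0 of 39 LM8 reads lacked 54 bases, again 1 copy of a repeat, here of 16 bases, and the bases up to the next copy. The other repeats counted above were of 12 bases in Rab21 in MBT2 (0 of 220 and 4 of 236 reads) and of 8 bases in Sdf2l1 in LM8 (0 of 284 and 4 of 254 reads). A 124-base MBT2 deletion in Tada3, in an annotated transcript not counted above, removes 1 copy of a 13-base repeat. Moved by more than 5 bases, its run begins with GT and ends with AG. A member with no read in 1 library was not rare among low shares, with 18 such deletions in MBT2 and 16 in LM8. Other deletions with neither GT and AG ends nor an intron length were carried by most reads, such as the 83-base deletion of Fam32a in MBT2 (74.9%). It is 3 bases longer than an intron of the gene and overlaps an 80-base member with an intron length, at 81.1%. Of the deletions named in this paragraph, those of Fam32a, Hmgn5, Mapk8ip1 and Atxn2l and the 33-base Anapc5 deletion are among those counted earlier with GC and AG ends. In Hmgn5 and Mapk8ip1 those letters lie on the strand opposite to the gene. In LM8 the 103-base deletion of Smc1a, a cohesin subunit, was carried by 202 of 226 and 175 of 199 reads (88.7%), and it is 1 base shorter than an intron of the gene. Bsg, the membrane glycoprotein basigin, had 177 of 260 and 180 of 266 LM8 reads with a 106-base deletion (67.9%). Tardbp had 7 of 885 and 4 of 877 LM8 reads with a 22-base deletion, whose bases lie inside a protein-coding transcript with no repeat at the ends. In MBT2, Rsl1d1 and Mast2 were at 0.884% and 1.94%, and Mapk8ip1, a scaffold of the JNK pathway, was at 38 of 247 and 37 of 273 reads (14.4%). The pseudogene Tmem250-ps and Lasp1, an actin-binding protein, were at 3.14% and 2.97%. In LM8, Pdia4, a protein disulfide isomerase, held deletions of 98 and 99 bases that share an end, at 84.8% and 12.8% of reads. Atxn2l, an ataxin-2-like RNA-binding protein, was at 0.809%, and a second Anapc5 deletion, of 33 bases, at 74.6%.

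Of the genes with any listed variant, 14.5% in MBT2 and 11.6% in LM8 held a member. Among chromatin regulators, members were in 8 of 28 genes with a listed variant in MBT2 (among them Asxl1, Atrx, Chd2, Kdm6b, Kmt2b and Kmt2d) and in 3 of 30 in LM8 (among them Smc1a and Stag1). Among DNA repair genes they were in 5 of 21 in MBT2 (Ercc3, Fanca, Neil1, Pold1 and Recql4) and in 4 of 19 in LM8 (Fanca, Fancg, Rad54l and Recql4). Cancer driver genes held members in 2 of 25 genes in MBT2 (Notch1 and Tsc2) and in 2 of 24 in LM8 (Braf and Mdm4). Antigen presentation genes held them in 3 of 14 genes in MBT2 (Jak2, Psmb10 and Tyk2) and in 0 of 13 in LM8. Splicing factor genes held them in 4 of 42 in MBT2 (Rbm10, Rbm5, Sf3b2 and Srsf11) and in 5 of 31 in LM8 (among them Luc7l3, Prpf4, Srrm1 and Srsf7). These counts are small, and the lists were not tested against each other. All 36 members of these 5 lists in MBT2 and 17 of 18 in LM8 had intron ends.

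A share of 0.5 or more was found for 30 of the 36 MBT2 members of these lists, beside 79.9% of all MBT2 members, and for 9 of the 18 LM8 members, beside 74.8% of all LM8 members. These counts were not tested. Pold1, the catalytic subunit of DNA polymerase delta, had 121 of 141 and 165 of 190 MBT2 reads with an 87-base deletion (86.4%) and 81 of 84 and 105 of 118 with a 71-base deletion (92.1%). Kdm6b, a histone demethylase, was at 92.4% in MBT2 for a 106-base deletion, and Fanca, of the Fanconi anaemia core complex, at 91.1% for a 71-base deletion. Ercc3, a helicase of nucleotide excision repair, was at 87.9% in MBT2. In Recql4, a helicase, an MBT2 deletion of 78 bases was at 85.7%, and LM8 deletions of 89 and 88 bases were at 93.3% and 5.56%. These have the length of an annotated intron of their gene. At the low end in MBT2 were Jak2, a cytokine receptor kinase, with 5 of 191 and 10 of 181 reads, Asxl1 with 3 of 91 and 3 of 135, and Atrx with 1 of 180 and 3 of 182. Chd2, a chromatin remodeller, had 15 of 98 reads in library 1 and 5 of 141 in library 2, which is 15.3% and 3.55% and did not pass the threshold between libraries (Fisher's exact test, adjusted p = 0.822). In LM8, Braf, a kinase of the MAPK pathway, had 4 of 68 and 7 of 97 reads with a 117-base deletion (6.67%, interval 3.38 to 11.6), and Mdm4, an inhibitor of p53, had 9 of 43 and 4 of 27 with a 76-base deletion (18.6%, interval 10.3 to 29.7). In Fanca, an LM8 deletion of 76 bases had 26 of 29 and 50 of 51 reads and another of 90 bases had 0 of 29 and 4 of 23, and Rad54l, of homologous recombination, was at 8.65%. Fancg deletions of 87 and 153 bases were carried by 96.0% and 91.4% of LM8 reads.

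The duplicate libraries of a line gave the same picture. All 751 MBT2 and all 511 LM8 deletions stood on the same side of 0.5 in both libraries, and the median absolute difference between the libraries was 0.0324 in MBT2 and 0.0370 in LM8. Tested per site with Fisher's exact test and adjusted over the whole list of the line, 0 MBT2 and 0 LM8 members differed between libraries (0.00% of all listed sites in both lines). At an unadjusted p under 0.05 there were 38 MBT2 members, where 3.76% of all listed MBT2 sites passed, and 32 LM8 members, where 3.89% of all listed LM8 sites passed. The smallest unadjusted p among LM8 members was that of the 96-base form in Abca7, a lipid transporter, with 0 of 68 and 14 of 79 reads (Fisher's exact test, adjusted p = 0.559). Among MBT2 members it was that of a 75-base deletion in Mapk8ip3, a JNK pathway scaffold, with 122 of 126 and 92 of 112 reads (Fisher's exact test, adjusted p = 0.644). Reads at the members summed to 72634 and 76947 in the MBT2 libraries and to 52553 and 50736 in the LM8 libraries.

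**Figure D5:**
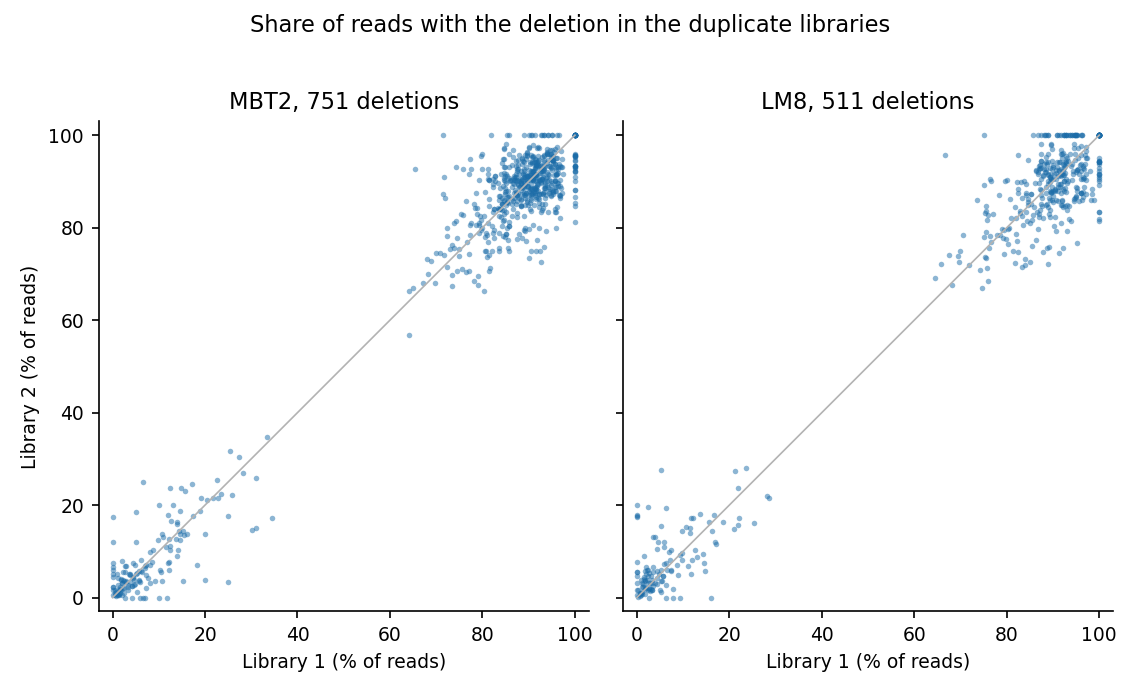
Reads with the deletion in percent of reads at its site, library 1 across and library 2 up, for the 751 MBT2 deletions (left) and 511 LM8 deletions (right), with the line of equality in grey. All points lie on the same side of 50% on both axes.

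Most reads with the deletion came from the strand that the intron ends give. The kit keeps the strand, and the orientation of most deleted reads was that of the strand of the ends for 712 of 713 MBT2 and 481 of 482 LM8 deletions. At some sites the reads without the deletion came mostly from the other strand, namely at 15 of the 150 MBT2 members (10.0%) and 4 of the 103 LM8 members (3.88%) with at least 20 undeleted and 5 deleted reads of known orientation. Orientation is listed for only some of the reads. In Srr, the deleted reads were 60 in 1 orientation and 13 in the other, and of the undeleted reads 0 shared the first and 669 had the opposite one. The share of 7.09% in all reads is thus 100% among reads of that orientation. In Psd, a share of 14.7% becomes 89.6% in the same way, with 103 deleted and 12 undeleted reads in the main orientation and 36 deleted and 529 undeleted reads in the other. Klc3, a kinesin light chain, was at 6.76% of all MBT2 reads and at 100% of those in the main orientation. The lowest value in the main orientation among the 15 MBT2 sites was 33.3%, for a 76-base deletion of Yipf2 that was at 9.40% of all reads, with 5 deleted and 10 undeleted reads in that orientation. In LM8, the transcription factor gene Zeb2 had 9 deleted reads and 0 undeleted reads in 1 orientation and 52 undeleted reads in the other. The share of all reads at such a site includes the undeleted reads of the other orientation.

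Some members overlapped a different deletion of the other list. Long deletions identical in both lists, 442 of the same effects and 303 of other effects, were left out by the rule. The overlap and gene shares given next were not computed over all listed variants, so they are descriptions without a background. A long deletion of any effect in the other list overlapped 18 MBT2 and 17 LM8 members, and the overlap covered 90% of both lengths for 4 MBT2 and 8 LM8 members. Members of both lines lay in 93 genes, which is 16.3% of the MBT2 genes and 22.9% of the LM8 genes. The gene of a member held a variant of any kind in the other list for 384 of 751 MBT2 members (51.1%) and 280 of 511 LM8 members (54.8%). An MBT2 and an LM8 member overlapped in 7 genes. In Nrf1, a transcription factor gene, MBT2 lacked 122 bases in 88.7% of 71 reads and LM8 lacked 147 bases in 4.26% of 94 reads. In Osbpl5, an oxysterol-binding protein, MBT2 lacked 99 bases in 4.19% of 191 reads and LM8 lacked 94 bases in 93.8% of 129 reads. The others were Pusl1, Uxt, Sbf1, Ivns1abp and C9orf72, and in 5 of the 7 the shares of the lines lay on opposite sides of 0.5.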

How the data were processed

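RNA of 2 untreated mouse cell lines was measured in 2 libraries each, grouped by the line in the titles. The authors deposited 1 variant list per line, with counts of reads per allele and library in a composite column, here named other since it holds several values. Per the file headers, Mutect 2.2 was run on the 2 libraries of each line together with no normal sample, and its calls were filtered with FilterMutectCalls and SelectVariants of GATK 4.1.5.0, with effects added by SnpEff 5.1d (GRCm39, database 105). Filter settings allowed a median fragment length difference between alleles of up to 10000, 2 events per region and 1 alternative allele, per the file headers. The submitters' processing notes name bcl2fastq 2.17.1.14, cutadapt 1.9.1, STAR 2.7.9a and GATK 4.3.0. Whether spliced reads were split at introns ahead of calling is not given in the sources.

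Members were found by length, effect and presence in 1 list. The members, gene lists and tests were chosen with earlier results of these data known. Shares of reads were computed from the deposited counts. Intron ends allow a shift of 0 to 5 bases, without a check that the bases beside the deletion permit it. Intron lengths and transcripts came from GENCODE M21 on an earlier build, so no coordinates were compared. Shares of deletions have exact 95% intervals. The 15 contrasts (3 features, with 2 comparison sets per line and the lines against each other) used two-sided Fisher's exact tests in scipy 1.17.1, with Benjamini-Hochberg adjustment. Since they include intron ends and lengths against deletions with other effects, an adjusted p near the threshold may be too small. Duplicates were tested per site over the whole list of a line. The tests compare lists and not repeated cultures. The per-site test of duplicates, the search for intron ends and the repeat length were checked on simulated data, and the 15 contrasts were not. Depth was 22 or more reads per member, with median depths per library of 59 and 65 in MBT2 and 56 and 54 in LM8. Named deletions are the 8 per line with the most reads, the 8 with the most reads among those with neither intron ends nor an intron length, up to 12 in driver, chromatin, DNA repair and antigen presentation genes, and those in the 4 genes with the most members. In-frame, overlapping, repeat-flanked, shortest and opposite-strand deletions were named after their values were seen. Sequences on chromosome 18 were not printed, and a few genes that the rule names are not reported here. Alternatives varied the length and depth minimum, the shift, the annotation and the libraries used. Reads in 1 orientation only were an alternative chosen after seeing the data.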

Additional observations from a re-analysis of the deposited data

How the results depend on the processing

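No paired analysis was possible because each deletion was listed in 1 line only, so no value of 1 line can be paired with the other by replicate number. Intron ends depended most on the shift: with none allowed, 47.5% of MBT2 and 44.4% of LM8 members had them, and with GC starts also allowed 97.2% and 96.3%. A length within 1 base of an intron raised the LM8 share with an intron length to 82.2%. The median share of reads was 0.877 and 0.879 in MBT2 and 0.870 and 0.884 in LM8 without 1 library or the other, 0.836 in MBT2 and 0.830 in LM8 with the caller's own fractions, and 0.876 and 0.858 at 40 or more reads. In the orientation of most deleted reads only, an alternative chosen after seeing the data, it was 0.935 and 0.927. Protein-coding transcripts alone held the deleted bases of 71 MBT2 members, against 250 in any transcript, and of 60 LM8 members, against 207. The odds of intron ends in members over deletions of both lists passed the threshold in MBT2 with GC starts allowed (0.318, Fisher's exact test, adjusted p = 0.0470) and at 40 or more reads (0.479, adjusted p = 0.0441), with adjusted p from 0.0441 to 0.343 over all alternatives. In LM8 they missed it with a shift of up to 10 bases (0.496, Fisher's exact test, adjusted p = 0.0913), with adjusted p from 0.00956 to 0.0913 over all alternatives. The cause was not tested. Of the 120 values under alternatives, those not named here kept their direction and side of the threshold or stayed within their spread, and leaving out a library moved no deletion across 0.5. Depth limits the low class: with 22 reads, a deletion in a few percent of RNA could go unlisted, so presence in 1 list does not show absence from the other line.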

Other observations

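Effect classes differed among the members in what was deleted. Of the splice acceptor members, 329 of 369 in MBT2 (89.2%) and 203 of 245 in LM8 (82.9%) had an intron length of their gene. Of the splice donor members, 3 of 31 in MBT2 (9.68%) and 1 of 10 in LM8 (10.0%) did, although 25 of 31 and 8 of 10 had intron ends. A high share of reads was found for 318 of 369 acceptor and 12 of 31 donor members in MBT2, and for 189 of 245 acceptor and 3 of 10 donor members in LM8. Intron ends stood at the listed ends with no shift in 298 of 359 acceptor members with intron ends in MBT2 (83.0%) and 189 of 237 in LM8 (79.7%), and in 40 of 323 frameshift members in MBT2 (12.4%) and 32 of 232 in LM8 (13.8%). The class is part of how members were chosen, and these differences were not tested.

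Over all members, fragments with the deletion spanned more of the genome than those without it. Per member, the caller lists a median fragment length for each allele, and its median over members was 834 bases with and 366 without the deletion in MBT2, and 806 with and 388 without it in LM8. Among members carried by fewer than 50% of reads these were 891 and 630 bases in MBT2 and 821 and 772 bases in LM8. Among the LM8 members of that class with intron ends and no intron length, 76 in all, the order was the other way, with 888.5 bases with and 902.5 without the deletion. The length without the deletion was listed as 0 for some members of both lines, such as the 77-base Cul9 deletion in LM8, which all 24 reads carried. These values were kept in the medians over all members.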
